A study of Caenorhabditis elegans with 5 samples.

Results

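The 10 genes described here encode the cyclic nucleotide-gated (CNG) channel subunits TAX-2, TAX-4, CNG-1 and CNG-3, the vanilloid-type TRP (TRPV) channel subunits OSM-9, OCR-1, OCR-2, OCR-3 and OCR-4, and the mechanosensory TRPN channel TRP-4. They were taken by name from a deposited table of 42048 genes, in which all 10 are present. The samples were neurons sorted by fluorescence from Caenorhabditis elegans at day 1 of adulthood, after growth at 16 °C on NA22 bacteria. The mutant group had 3 libraries from animals of genotype edIs6 thoc-5(wy822), and the wildtype group had 2 libraries from edIs6 animals. Both groups therefore carried edIs6, known as an integrated reporter that puts GFP under unc-119 sequence and so marks most neurons rather than a single class. THOC-5 belongs to the THO complex, which packages new messenger RNA for export from the nucleus, and the comparison asks which neuronal transcripts differ when thoc-5 is mutated. Separate cultures for the replicates are not stated in the labels, so every p-value measures only the spread between these libraries, which may be technical.

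In worm sensory cilia, odours, tastes, warmth and oxygen are read out through 2 kinds of channel. In neurons such as AWC, AWB, ASE, AFD and BAG, receptors act on guanylyl cyclases, and cyclic GMP opens a channel of TAX-4, the subunit that can form a pore on its own, and TAX-2, the modulatory subunit. In neurons such as AWA, ASH, ADL and ADF, the TRPV subunits OSM-9 and OCR-2 work together and depend on each other to reach the cilium. TRP-4 forms a touch-gated pore in the dopamine neurons CEP, ADE and PDE and a stretch sensor in the interneuron DVA.

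Values are normalised read counts, meaning reads per gene over a library's size factor, as the authors deposited them. Log2 fold changes are mutant minus wildtype means of log2(normalised count + 1), with adjusted p from limma over all 13787 tested genes. The added 1 lowers changes of genes with few reads, but a single wildtype library at or near 0 can raise this difference of means. DESeq2, which fits read counts, gave 1.67 for osm-9 and 2.85 for ocr-3, where limma gave 3.14 and 4.77. Of the 10 channel genes, only cng-1 (2.27 against 2.13) and trp-4 (1.66 against 1.64) were higher in DESeq2. Depth was 6.80 M to 8.69 M reads in the mutant libraries and 10.2 M to 10.3 M in the wildtype libraries, and these channel genes took 1940 to 2339 reads of a mutant library and 492 and 198 reads of wildtype replicates 1 and 2. thoc-5 itself, listed as Y32H12A.2, was at 78.3, 34.6 and 12.7 in mutant replicates 1 to 3 and at 154 and 122.2 in wildtype replicates 1 and 2, a difference that did not pass (limma adjusted p = 0.148). The defining pan-neuronal genes were detected in all libraries with the exception of unc-31, which had no read in wildtype replicate 2. The list of 22 pan-neuronal genes took 1.92% to 3.35% of reads in the mutant libraries, against 0.769% and 0.0749% in wildtype replicates 1 and 2. Epidermis, muscle, intestine and germline lists ran the other way. The 15 epidermis genes, for example, took 0.222% to 1.12% of mutant reads and 5.996% to 8.92% of wildtype reads. Not every other cell type did so. The 5 coelomocyte genes were higher in the mutant libraries, at 0.166% to 0.287% against 0.00994% to 0.0364% in wildtype. The glia list overlapped between the groups. Exact (Clopper-Pearson) 95% intervals of these shares had half-widths of at most 0.0174 percentage points and cover counting error only. In such bulk samples, fewer cells of a type and less RNA per cell cannot be told apart.

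Among the sensory channel genes, tax-2 was higher in the thoc-5 mutant sorts, and the other 9 did not pass the test. Of the 10 channel genes, 1 rose and 0 fell at a limma adjusted p below 0.05, where 6.97% of all tested genes rose and 5.92% fell. All 10 had a positive log2 fold change, as did 52.3% of all tested genes, and 8 had every mutant library above both wildtype libraries, as did 30.1% of all tested genes. Their log2 fold changes ran from 1.52 to 4.77 with a median of 3.68, beside a median of 0.13 over all tested genes. In the authors' deposited table these medians are 2.26 and 0.17. At an unadjusted limma p below 0.05 there were 7 of 10 members higher and 22% of all tested genes higher. All 10 passed the filter on low values, and each would have passed it on its mutant values alone. Scaled to the reads of the pan-neuronal list in place of the whole library, cng-1 and trp-4 had negative log2 fold changes, as set out beside their values.

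**Figure D1:**
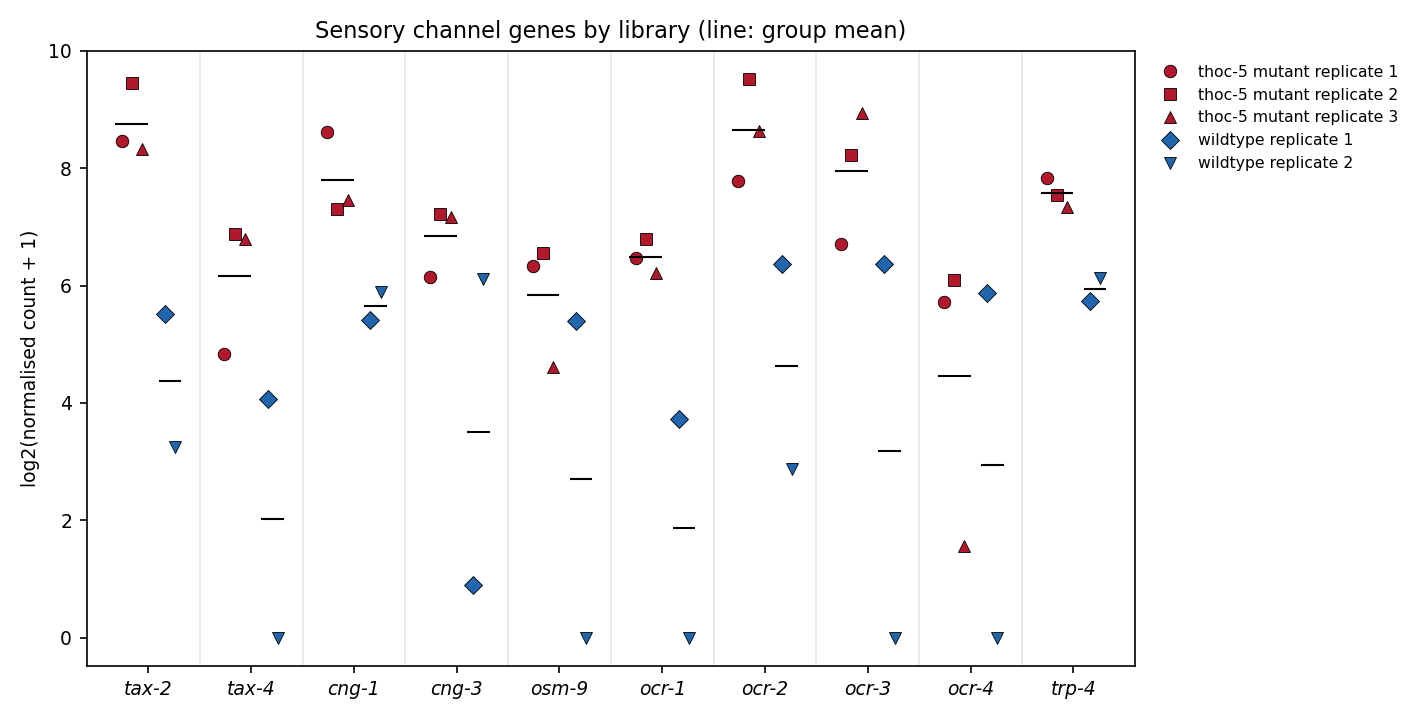
Each point is the log2(normalised count + 1) of a channel gene in a library, with the 3 thoc-5 mutant libraries (red) left of the 2 wildtype libraries (blue) and a line at each group mean. The groups are apart for all genes except osm-9 and ocr-4, and wildtype replicate 2 is at 0 for tax-4, osm-9, ocr-1, ocr-3 and ocr-4.

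The principal sensory CNG channel is made of TAX-4 and TAX-2. tax-2 (WBGene00006525, WBcel235 chromosome I, 9020945 to 9025608, plus strand, protein coding, 14 exons) had normalised counts of 351, 701 and 321 in mutant replicates 1 to 3, against 44.5 and 8.50 in wildtype replicates 1 and 2. The lowest mutant library was thus several times the higher wildtype library, and the groups did not overlap. Mean levels were 458 ± 211 in the mutant (SD, n = 3) and 26.5 ± 25.4 in wildtype (SD, n = 2), a log2 fold change of 4.37 (SE 0.81, limma adjusted p = 0.0384). In raw reads this was 448, 628 and 329 in the mutant libraries and 51 and 8 in wildtype. In the authors' deposited table the value is 3.84 (adjusted p = 2.0e-04). That table called 5 of the 10 members higher, namely tax-2, ocr-1, ocr-2, cng-1 and trp-4, where it called 13.4% of its genes higher. Its log2 fold changes for the members not called are 2.91 for tax-4, 2.36 for ocr-3, 1.56 for cng-3, 1.38 for osm-9 and 0.37 for ocr-4.

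The rise of tax-2 held in direction in every alternative fit but its call did not. Leaving out any 1 mutant library, or wildtype replicate 2, put the limma adjusted p between 0.0749 and 0.133, and edgeR's quasi-likelihood test gave 0.0858. Without wildtype replicate 2 the log2 fold change was 3.24, and without wildtype replicate 1 it was 5.50 (limma adjusted p = 0.0165). Scaled to pan-neuronal reads it was 1.44 (limma adjusted p = 0.419).

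tax-4 (WBGene00006526, chromosome III, 9181546 to 9185888, plus strand, 10 exons), the subunit that forms a cyclic GMP-gated pore alone, had normalised counts of 27.4, 117 and 110.1 in mutant replicates 1 to 3, against 15.7 and 0 in wildtype replicates 1 and 2. The mutant libraries were all higher, replicate 1 by the least, and 0 of 10.2 M reads in wildtype replicate 2 allows up to 0.293 reads in each 1 M. The log2 fold change was 4.14 (SE 1.44) and did not pass (limma adjusted p = 0.0883), and without wildtype replicate 2 it was 2.11 (limma adjusted p = 0.322).

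The subunits differed in level and in how they varied. Per kilobase of exon and 1 M reads, tax-2 was at 24.8, 37.6 and 15.4 in mutant replicates 1 to 3, and tax-4 at 1.88, 6.11 and 5.14. On that scale the ratio of tax-2 to tax-4 was 13.2, 6.15 and 3.00 in the mutant libraries and 2.92 in wildtype replicate 1. tax-2 was thus the more abundant message in each library with reads of both, by a ratio that differed more among the mutant libraries than between mutant replicate 3 and wildtype replicate 1. No ratio exists for wildtype replicate 2, which had 8 reads of tax-2 and 0 of tax-4, so the ratio was not tested between groups.

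The other CNG subunits gave a different pattern across wildtype libraries. cng-1 (WBGene00000562, chromosome V, 15025731 to 15031473, minus strand, 16 exons), which encodes a further CNG subunit, had normalised counts of 392, 156 and 174 in mutant replicates 1 to 3, against 41.9 and 58.4 in wildtype replicates 1 and 2. Both wildtype libraries lay below every mutant library and close to each other. The log2 fold change of 2.13 (SE 0.62) did not pass in limma (adjusted p = 0.0625), while in the authors' deposited table it is 2.17 (adjusted p = 0.0182). Leaving out either wildtype library left it at 1.90 or 2.37.

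cng-3 (WBGene00000563, chromosome IV, 9477522 to 9481037, minus strand, 13 exons), whose product takes part in olfactory plasticity, had normalised counts of 69.7, 147 and 143 in mutant replicates 1 to 3, against 0.872 and 68.0 in wildtype replicates 1 and 2. The wildtype libraries differed widely, as replicate 1 had 1 read and replicate 2 had 64. Mutant replicate 1 and wildtype replicate 2 were nearly level, although the groups did not overlap. It had a log2 fold change of 3.34 (SE 1.51, limma adjusted p = 0.157), and it was 0.73 without wildtype replicate 1 and 5.94 without wildtype replicate 2 (limma adjusted p = 0.475 and 0.132).

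**Figure D2:**
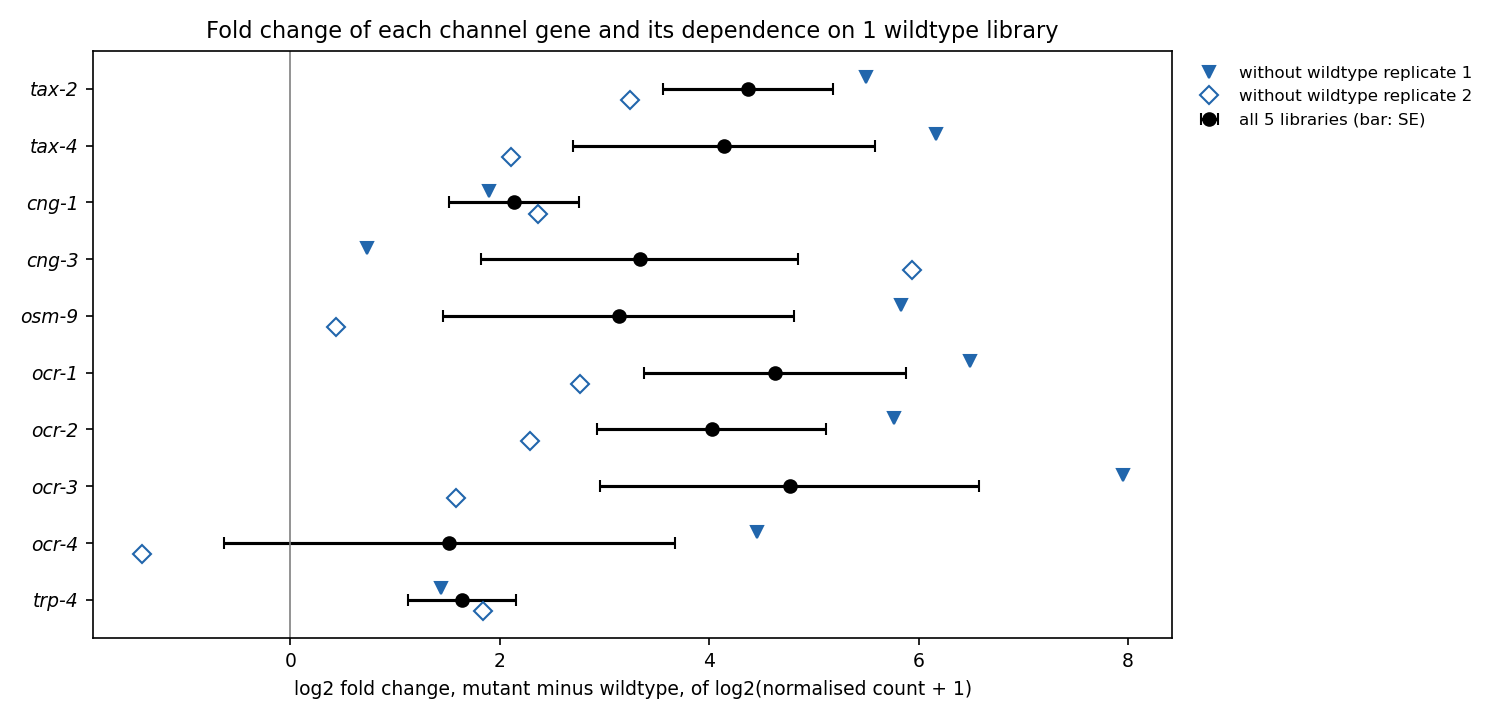
Log2 fold change, mutant minus wildtype, of each channel gene from all 5 libraries (black, bar is the SE) and with either wildtype library left out (blue). With library-size scaling cng-1 and trp-4 stay between 1.44 and 2.37, though negative when scaled to pan-neuronal reads, whereas ocr-4 is at -1.42 without wildtype replicate 2 and cng-3 at 0.73 without wildtype replicate 1.

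Among the TRPV genes, ocr-2 and ocr-1 gave the clearest separation and osm-9 and ocr-4 gave none. ocr-2 (WBGene00003839, chromosome IV, 8213788 to 8220087, minus strand, 13 exons), whose product pairs with OSM-9 in AWA, ASH, ADL and ADF, had normalised counts of 219, 736 and 396 in mutant replicates 1 to 3, against 81.1 and 6.37 in wildtype replicates 1 and 2. All mutant libraries were higher, with a log2 fold change of 4.03 (SE 1.09, limma adjusted p = 0.0558). It was called by upper quartile scaling (adjusted p = 0.0483) and in the authors' deposited table (log2 fold change 3.05, adjusted p = 0.0162), and it was 2.29 without wildtype replicate 2.

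ocr-1 (WBGene00003838, chromosome V, 10764366 to 10768590, plus strand, 14 exons), a TRPV gene of the olfactory neuron AWA, had normalised counts of 87.7, 109 and 73.1 in mutant replicates 1 to 3, against 12.2 and 0 in wildtype replicates 1 and 2. Its mutant libraries lay within 1.496 times of one another, well above wildtype. Its log2 fold change was 4.63 (SE 1.25, limma adjusted p = 0.0552) and 2.77 without wildtype replicate 2. ocr-1 shares 128 exon bases with the gene D1054.1 on the opposite strand, and the kits named in the labels do not mark strand. D1054.1 had 459, 286 and 521 reads in mutant replicates 1 to 3 and 202 and 272 in wildtype replicates 1 and 2, where ocr-1 had 14 and 0. Whether any reads of D1054.1 were counted for ocr-1 was not tested.

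osm-9 (WBGene00003889, chromosome IV, 3551090 to 3557431, minus strand, 14 exons), the TRPV subunit shared by most of these channels, had normalised counts of 79.9, 92.6 and 23.4 in mutant replicates 1 to 3, against 40.99 and 0 in wildtype replicates 1 and 2. Mutant replicate 3 lay below wildtype replicate 1, so the groups overlapped. The log2 fold change of 3.14 (SE 1.68, limma adjusted p = 0.216) rested on wildtype replicate 2, without which it was 0.44 (limma adjusted p = 0.817).

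The osm-9 and ocr-2 messages did not keep a fixed proportion. In reads, ocr-2 over osm-9 was 2.75, 7.94 and 16.9 in mutant replicates 1 to 3 and 1.98 in wildtype replicate 1, and their exon lengths of 2871 and 2875 bases make this nearly a ratio per length too. Wildtype replicate 2 had 6 ocr-2 reads and 0 osm-9 reads, so no ratio could be formed there and none was tested.

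ocr-3 (WBGene00003840, chromosome X, 15168724 to 15173636, plus strand, 16 exons), a TRPV gene known from the rectal gland cells, had normalised counts of 103, 298 and 487 in mutant replicates 1 to 3, against 82.0 and 0 in wildtype replicates 1 and 2. Mutant replicate 1 was only slightly above wildtype replicate 1, and the others were well above it. This gave the largest limma log2 fold change of the 10 members, 4.77 (SE 1.81, limma adjusted p = 0.107), and 1.58 without wildtype replicate 2. In the authors' deposited table it is 2.36, below tax-2, ocr-1, ocr-2 and tax-4.

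ocr-4 (WBGene00003841, chromosome IV, 7329611 to 7332795, minus strand, 10 exons), a TRPV gene of the mechanosensory OLQ neurons, had normalised counts of 51.7, 67.0 and 1.95 in mutant replicates 1 to 3, against 57.6 and 0 in wildtype replicates 1 and 2. Each group held a library at or near 0, mutant replicate 3 with 2 reads and wildtype replicate 2 with none, and the other libraries were level. Its log2 fold change was 1.52 (SE 2.15, limma adjusted p = 0.641), and -1.42 without wildtype replicate 2.

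trp-4 (WBGene00006616, chromosome I, 13899085 to 13914008, plus strand, 24 exons), the mechanosensory channel of the dopamine neurons, had normalised counts of 226, 186 and 161 in mutant replicates 1 to 3, against 52.3 and 69.1 in wildtype replicates 1 and 2. Replicates of each group lay close together, with the mutant at 191 ± 33.03 (SD, n = 3) and wildtype at 60.7 ± 11.8 (SD, n = 2). The log2 fold change was 1.64 (SE 0.51) and did not pass in limma (adjusted p = 0.0724), and in the authors' deposited table it is 1.61 (adjusted p = 0.0365). It stayed between 1.44 and 1.84 whichever library was left out, and was -1.35 scaled to pan-neuronal reads.

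Compared per kilobase of exon and 1 M reads, the members' levels in the mutant libraries formed a graded order. tax-2 led with a mean of 25.9, followed by ocr-2 at 21.1, ocr-3 at 15.1, cng-1 at 12.6 and cng-3 at 8.24. Below them came ocr-1 at 4.75, trp-4 at 4.59, tax-4 at 4.38, osm-9 at 3.34 and ocr-4 at 2.51. Neighbours in this order had overlapping ranges over the 3 mutant libraries, except that cng-3, at 6.18 to 9.92, lay above ocr-1, at 3.21 to 5.66; trp-4, next in the order at 3.16 to 6.53, overlapped both. In wildtype replicate 1 the order differed: ocr-3 at 3.59, ocr-2 at 3.14 and ocr-4 at 2.68 came first, and cng-3 at 0.0495 came last. In wildtype replicate 2 it differed again: cng-3 at 3.19, cng-1 at 1.87 and trp-4 at 1.06 came first, and ocr-3 and ocr-4 were at 0. Exon lengths are from WBcel235, while the reads were mapped to ce10, so these levels assume that the gene models are alike.

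**Figure D3:**
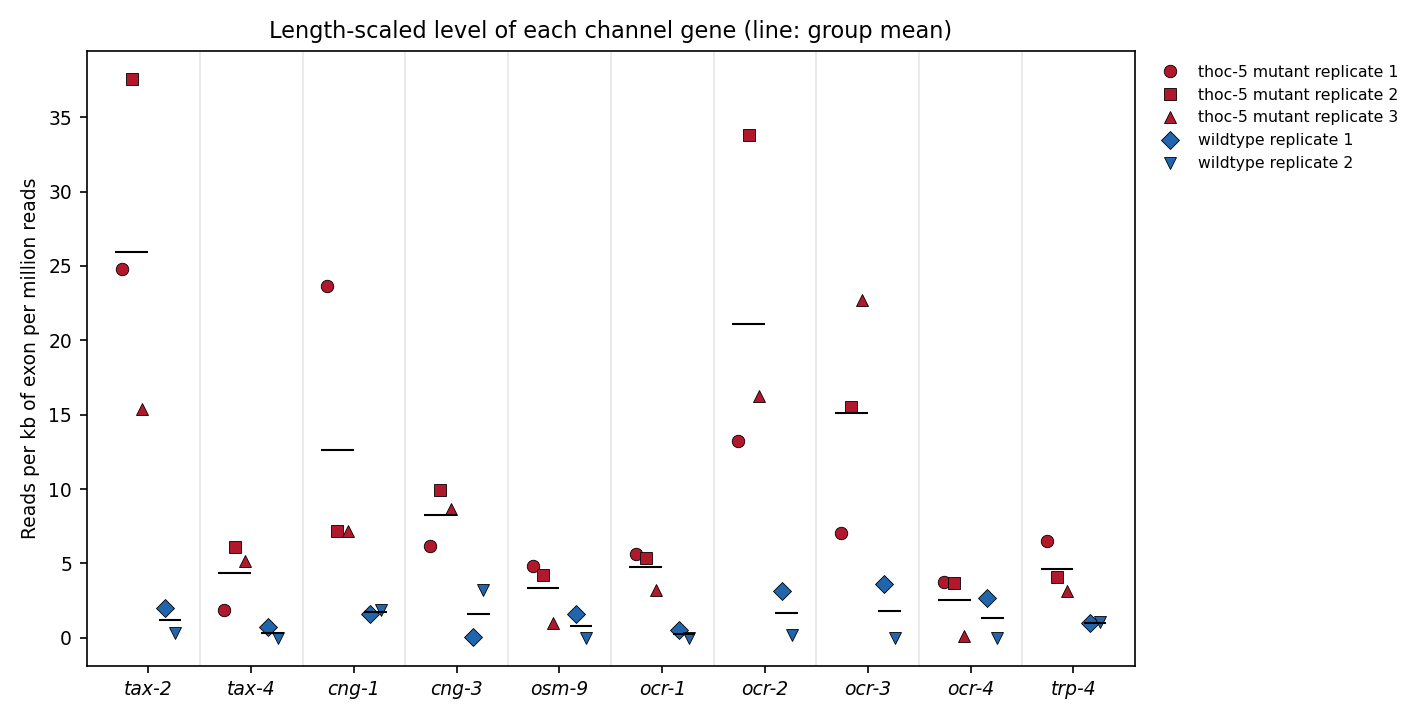
Reads per kilobase of exon and 1 M reads for each channel gene in the 3 thoc-5 mutant libraries (red, left) and the 2 wildtype libraries (blue, right), with a line at the group mean. tax-2 and ocr-2 have the highest mutant means, 25.9 and 21.1, and the highest wildtype value of any gene is 3.59.

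Wildtype replicate 2 split the members in a way no other library did. In it, cng-1, cng-3 and trp-4 had 55, 64 and 65 reads, while the other 7 members had 14 reads in all. Those 3 genes, picked out after their values were seen, made up 92.9% of the channel reads of wildtype replicate 2 (exact 95% interval 88.4% to 96.1%). Their share was 42.8%, 18.8% and 25.3% in mutant replicates 1 to 3 and 22.2% in wildtype replicate 1. That library also had the lowest pan-neuronal share and the highest muscle share, 6.03% against 3.14% in wildtype replicate 1, and their part in the split was not tested.

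Set against neuronal reads, the difference between the groups was smaller for most channel genes and ran the other way for cng-1 and trp-4. Per 10,000 pan-neuronal reads, tax-2 was at 20.8, 48.1 and 11.3 in mutant replicates 1 to 3, against 6.43 and 10.4 in wildtype replicates 1 and 2. The groups still did not overlap, by a narrow margin, and the log2 difference was 1.46 (exact two-sided permutation p = 0.2, 0.667 adjusted over the 5 members with reads in every library, where 3 against 2 libraries cannot go below 0.1). ocr-2 was at 13.03, 50.5 and 13.97 in the mutant libraries and at 11.7 and 7.83 in wildtype, a log2 difference of 1.13 (exact permutation p = 0.3, adjusted 0.667). ocr-1, with 5.21, 7.51 and 2.58 in the mutant libraries and 1.76 and 0 in wildtype, was the remaining gene whose groups did not overlap. Thus 3 of 10 members were higher in every mutant library per pan-neuronal read, and 0 were lower in every one, where 8.08% of all tested genes were higher and 57.1% lower.

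On the same scale trp-4 was at 13.4, 12.8 and 5.68 in mutant replicates 1 to 3, against 7.57 and 84.9 in wildtype replicates 1 and 2. The high value of wildtype replicate 2 set the sign, with a log2 difference of -1.35 (exact permutation p = 0.4, adjusted 0.667) that was 0.39 without that library. cng-1 had 23.3, 10.7 and 6.16 in the mutant libraries and 6.05 and 71.8 in wildtype, a log2 difference of -0.85 (exact permutation p = 0.7, adjusted 0.8) that was 0.93 without wildtype replicate 2. For cng-3 the difference was 0.88 (exact permutation p = 0.8, adjusted 0.8), and -3.81 without wildtype replicate 1. Summed over the 10 members, channel reads per 10,000 pan-neuronal reads were 95.6, 179 and 66.8 in the mutant libraries and 62.0 and 258 in wildtype, so the groups overlapped. The peptide-processing genes egl-3, egl-21, ida-1 and sbt-1 made up 78.0% to 87.3% of the pan-neuronal list's reads in the mutant libraries and 86.1% and 56.4% in wildtype replicates 1 and 2, and unc-119, which the reporter may add to, at most 3.05% in any library. With those 4 genes left out of the scaling, a choice made after seeing the data, tax-2 was at a log2 fold change of 1.93 (limma adjusted p = 0.0785), cng-1 at -0.35 and trp-4 at -0.85.

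**Figure D4:**
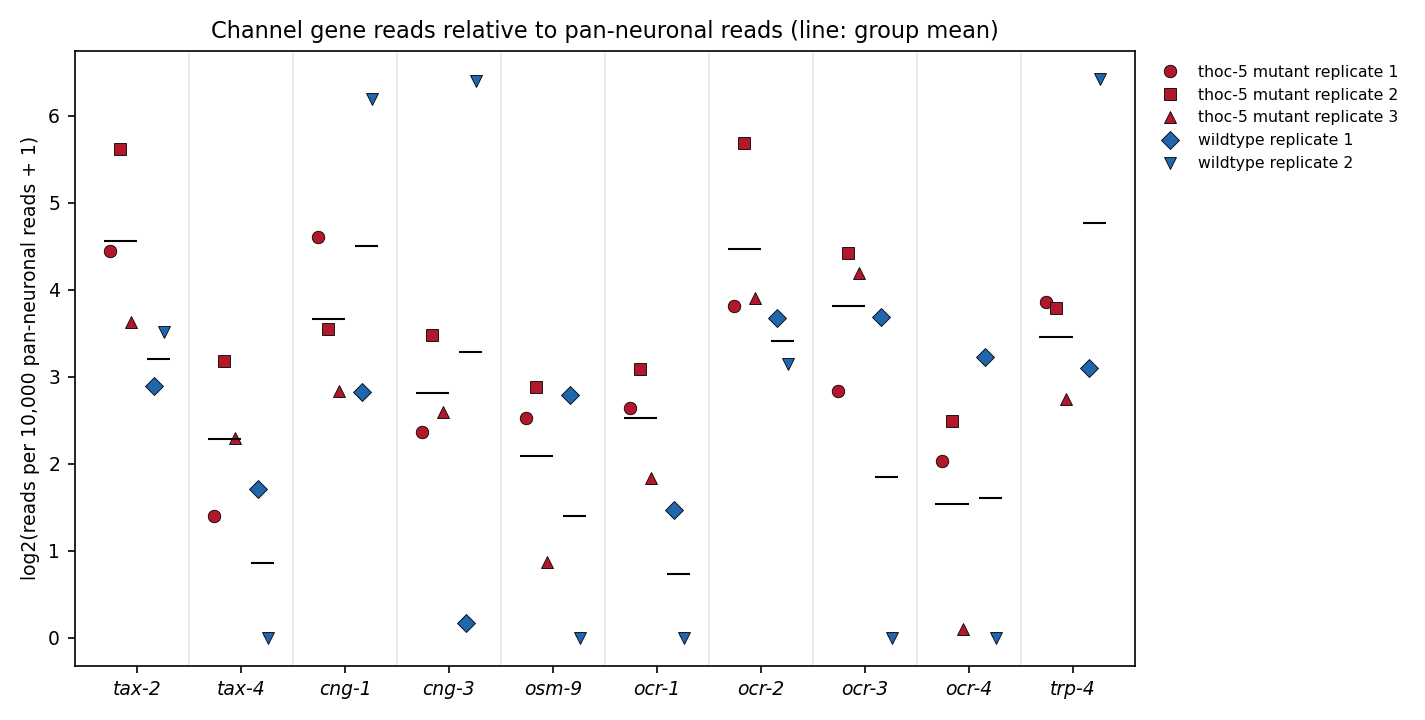
Channel reads per 10,000 pan-neuronal reads, as log2(value + 1), in the 3 thoc-5 mutant libraries (red, left) and 2 wildtype libraries (blue, right), with a line at the mean of the plotted values. tax-2, ocr-1 and ocr-2 keep all mutant points above wildtype, and wildtype replicate 2 is highest for cng-1 (71.8), cng-3 (83.6) and trp-4 (84.9).

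For the lists of related genes from here on, only library-size scaling is shown. On that scale the summed pan-neuronal list was at 168312, 145603 and 283217 in mutant replicates 1 to 3, against 69169 and 8139 in wildtype replicates 1 and 2. The part of this neuronal share in the differences of the lists was not tested. The other channel genes of these families included some that passed. Of 13 listed, 10 were tested, 4 rose and 0 fell, with a median log2 fold change of 1.88, where 6.97% of all tested genes rose. The risen genes were cng-2, another CNG subunit gene, at 6.24, the TRPC gene trp-2 at 4.67, the TRPA gene trpa-2 at 2.28, and che-6. che-6, a CNG subunit gene of chemosensory neurons, had 82 mutant reads and none in wildtype, at least 17.8-fold higher against a floor of 3 reads over the wildtype group. With no wildtype read, che-6 passed the filter on low values through mutant libraries alone, so it could enter the test only as higher. gtl-1, a TRPM channel gene of the intestine named here after its values were seen, was at 1.57, 39.1 and 7.80 in mutant replicates 1 to 3 and at 147 and 91.4 in wildtype replicates 1 and 2 (log2 fold change -3.60, limma adjusted p = 0.0942). The 14 intestine marker genes took 0.0567% to 0.213% of mutant reads and 0.666% to 0.804% of wildtype reads, and their part in the gtl-1 difference was not tested.

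The list named for cyclic GMP signalling around the CNG channels holds guanylyl cyclase genes, phosphodiesterase genes, readers of cyclic GMP and a few regulators. Of 23 tested, 10 rose and 0 fell, where 6.97% of all tested genes rose, and the median log2 fold change was 3.79. The 10 include tax-6, a calcineurin gene, and cmk-1, a calmodulin-dependent kinase gene, which act through calcium and are named here after their values were seen. daf-11, a receptor guanylyl cyclase that supplies cyclic GMP to TAX-4 and TAX-2, had normalised counts of 365, 377 and 378 in mutant replicates 1 to 3, against 13.1 and 0 in wildtype replicates 1 and 2 (log2 fold change 6.64, SE 1.15, limma adjusted p = 0.0384). The phosphodiesterase genes pde-5, pde-3 and pde-6 rose by 6.16, 3.38 and 2.90 on the log2 scale. Phosphodiesterase genes were listed whichever cyclic nucleotide their products break down, so these need not act on cyclic GMP. daf-11 was even across the mutant libraries, whereas tax-4 in the same libraries varied by 4.27 times.

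Of the upstream G protein genes, 2 of 14 rose and 0 fell, where 6.97% of all tested genes rose, with a median of 2.71. All 14 had positive log2 fold changes, and 12 had every mutant library above both wildtype libraries, as did 30.1% of all tested genes. odr-3, the G protein alpha subunit gene upstream of both channel kinds in AWC and AWA, had normalised counts of 80.7, 89.3 and 41.9 in mutant replicates 1 to 3, against 6.11 and 0 in wildtype replicates 1 and 2 (log2 fold change 4.68, SE 1.15, limma adjusted p = 0.0479). The arrestin gene arr-1 rose by 2.38 on the log2 scale. Of genes listed as core cilium genes, 10 of 20 rose and 0 fell, with a median of 4.43, beside the same 6.97%. Of the 20, 19 had a positive log2 fold change and 1 a negative. The negative gene, dyf-7, named here after its values were seen, was at 48.6, 102 and 96.5 in mutant replicates 1 to 3. In wildtype replicates 1 and 2 it was at 51.5 and 590 (log2 fold change -1.15, limma adjusted p = 0.461). The smallest p-values were those of the intraflagellar transport genes osm-5, che-11 and dyf-1, at 4.61, 4.86 and 3.39, and the ciliary dynein gene che-3 at 3.19.

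With library-size scaling, some marker genes of the neurons that use each channel kind also rose, where 6.97% of all tested genes rose. For neurons that use tax-2 and tax-4, 17 of 20 listed markers were tested. Of these, 16 had a positive log2 fold change, as did 52.3% of all tested genes. In 12 every mutant library was above both wildtype libraries, as in 30.1% of all tested genes. Of the 17, 4 rose and 0 fell, with a median of 3.36. They were the nematocin gene ntc-1 (3.65), the neuropeptide gene nlp-1 (3.72), and the chemoreceptor genes srbc-66 (5.92) and srbc-64, the last with 59 mutant reads and 0 wildtype reads, at least 12.8-fold higher. Of 10 transcriptional regulators of these neurons 1 rose and 0 fell, a share near the 6.97% of all tested genes. The list median was 2.39, with 9 positive log2 fold changes and 1 negative. The regulator that rose was ahr-1 at 2.65, an aryl hydrocarbon receptor gene of oxygen-sensing neurons. For neurons that use osm-9 and ocr genes, 3 of 10 rose and 0 fell, with a median of 4.38. These were the chemoreceptor gene sre-1 (4.45), the homeobox gene unc-42 (4.98) and the G protein gene gpa-15, which had 228 mutant reads and none in wildtype, at least 49.6-fold higher. Like che-6, srbc-64 and gpa-15 passed the filter on low values through mutant libraries alone and could enter the test only as higher. For the neurons that use trp-4, 3 of 9 rose and 0 fell, with a median of 3.75: ast-1 (3.96), a regulator of dopamine neurons, nlp-12 (3.34), a neuropeptide gene of DVA, and cat-2 (4.69), which encodes tyrosine hydroxylase. The log2 fold change of trp-4 itself was 1.64, and those of the 9 markers ran down to 1.40 for twk-16, a potassium channel gene, and 0.0014 for bas-1, which encodes an aromatic amino acid decarboxylase. These lists share the libraries of the channel genes, and none of their 37 calls held without any 1 mutant library or without wildtype replicate 2, when limma called 0 genes (3415 to 4702 at an unadjusted p below 0.05, while edgeR on all libraries also called 0).

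**Figure D5:**
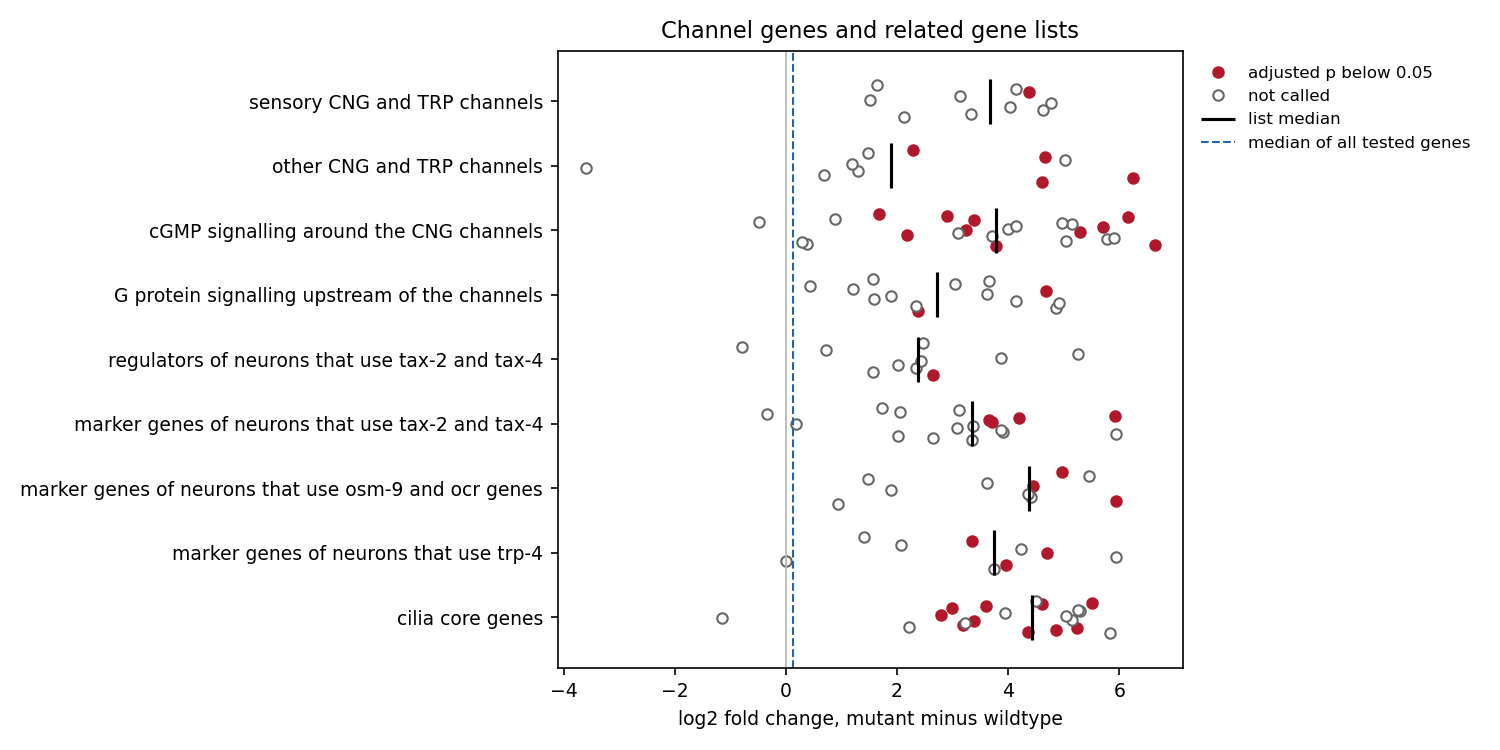
Log2 fold change with library-size scaling, mutant minus wildtype, of the 10 sensory channel genes and of the tested genes of 8 related lists (filled, limma adjusted p below 0.05; open, not called), with a bar at each list median and a dashed line at the median of all tested genes, 0.13. Medians lie between 1.88 for other CNG and TRP channels and 4.43 for cilia core genes.

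The genes most like tax-4 and osm-9 over the 5 libraries were not their channel partners. By Euclidean distance between log2 values centred on each gene's mean, T26A8.2, srw-88 and clec-125 were nearest to tax-4, at 0.36, 0.50 and 0.57. ocr-2 was the nearest channel gene to tax-4, at 0.92 and rank 23 of 13786, while tax-2 was at 1.97 and rank 583. Nearest to osm-9 were Y75B7AL.2, C05D11.8 and C05E7.1, at 0.60, 0.66 and 0.73. Its nearest channel gene was ocr-1, at 2.33 and rank 550, while ocr-2 was at 2.48 and rank 725. With 5 libraries of which 1 was at 0 for both tax-4 and osm-9, these distances describe the libraries and carry no test.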

How the data were processed

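Neurons were dissociated and sorted, RNA was extracted with a micro-scale column kit, and cDNA and libraries were made with SMARTer v4 and Nextera XT kits, per the labels' protocols. The submitters' processing notes name Trim Galore, STAR 2.4.2a, DESeq2 and the build ce10, and a read counter is not given in the sources used here. For each library the authors deposited a signal, namely gene counts over a size factor; every value (100%) was a whole multiple of 1 read within 1e-04. The authors' deposited table also gives log2 fold changes with standard errors, a test score, and p-values with adjusted p-values, per the file headers.

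limma 3.58.1 in R 4.3.3 (trend, Benjamini-Hochberg, two-sided, threshold 0.05) was fitted to log2(value + 1) of genes with 10 or more in at least 2 libraries. The code was also run on simulated data with a single dispersion and the same gene means in all libraries of a group. Those data do not copy the difference between the wildtype libraries, so that run says nothing of error rates here. edgeR 4.0.16 and DESeq2 1.42.0 on recovered reads were alternatives, beside a replicate block, other pseudocounts, filters and scalings, array weights and leaving out each library. Positions and merged exon lengths came from WBcel235, matched by name for 10 of 10 members. Depth, the total reads per library, limits the precision of members with few reads; exact intervals cover counting error only. No sequence was used here.

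The members and lists were chosen with earlier results of these data known. Named genes are the 10 members and up to 4 called genes with the smallest p per list (2 where none was called). By the same rule the 3 nearest to tax-4 and to osm-9 are named. The genes gtl-1, tax-6, cmk-1, dyf-7, twk-16, bas-1, D1054.1 and Y32H12A.2 were named outside that rule. The marker lists of glia and coelomocytes took 0.0125% to 0.0243% and 0.166% to 0.287% of mutant reads, and 0.00556% to 0.0187% and 0.00994% to 0.0364% of wildtype reads. Muscle took 1.15% to 1.50% and 3.14% to 6.03%, germline 0.0144% to 0.0297% and 0.0952% to 0.241%, in mutant and wildtype libraries.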

Additional observations from a re-analysis of the deposited data

How the results depend on the processing

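The alternatives are not all separate. Another filter cannot change a gene's log2 fold change, and the replicate block gave the members those of leaving out mutant replicate 3. Of 190 member log2 fold changes under alternatives, such copies included, 182 kept their direction. The 8 that did not were cng-1 and trp-4 at -0.85 and -1.35 under scaling to pan-neuronal reads, -0.35 and -0.85 with 4 peptide-processing genes left out of it, cng-1, ocr-4 and trp-4 at -1.16, -0.26 and -1.66 under scaling to cilia core reads, and ocr-4 at -1.42 without wildtype replicate 2 (4.46 without replicate 1). Per pan-neuronal read, cng-1 and trp-4 turned to 0.93 and 0.39 without wildtype replicate 2 and were -2.64 and -3.10 without replicate 1, and cng-3 turned to -3.81 without replicate 1 and was 5.56 without replicate 2. The cilia scaling and that without the 4 genes were chosen after seeing the data. In wildtype replicate 2, dyf-7 alone held 590 of the 1806 normalised counts of the cilia list. Scaling to pan-neuronal reads, without the 4 genes and to cilia reads moved the median of all genes to -2.78, -2.29 and -3.07, where the member medians were 1.28, 1.69 and 0.96; quantile normalization moved it to -0.02.

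Main counts were 961 genes higher, 816 lower, and 1 member higher. Higher and lower counts and members higher were 1737, 1480 and 4 with a pseudocount of 8; 1573, 1425 and 3 with quantile normalization; 126, 4383 and 0 with pan-neuronal scaling; 260, 6104 and 0 without the 4 genes; 204, 7919 and 0 with cilia scaling; 0, 0 and 0 in edgeR (3869 at an unadjusted p below 0.05); 2070, 1642 and 5 in DESeq2; and 2063, 1654 and 5 in the authors' deposited table. Array weights gave 436 and 371, no filter 533 higher, and upper quartile scaling 2 members. Leaving out 1 library gave 0 to 2167 higher, 0 to 480 lower, 0 to 6 members higher and member medians of 2.20 to 5.63. The causes were not tested. No member was called lower in any of these fits.

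Replicate numbers are shared by the groups for 2 pairs, and same-numbered libraries' deviations correlated at 0.01 and 0.11 over genes. With 2 wildtype libraries, a correlation with wildtype replicate 1 is always minus that with wildtype replicate 2. Mutant replicate 3, which has no same-numbered wildtype library, was at 0.11 with wildtype replicate 1, so these values cannot show pairing. With the replicate block, in which mutant replicate 3 is alone and adds nothing to the difference, 0 genes were called higher, 0 lower and 0 members higher (3951 genes at an unadjusted p below 0.05). Ratios between channel partners could not be tested, since tax-4 and osm-9 had no read in wildtype replicate 2. Members with under 20 reads in a wildtype library, among them tax-2, tax-4, ocr-1 and ocr-2, have wide counting intervals there.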
